A study of Mus musculus with 2 samples.

Results

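Oligodendrocyte precursor cells (OPCs) of the adult mouse arcuate nucleus and median eminence are described here, in 1 Drop-seq library from Irx3/5dHet mice and 1 from WT mice. A cell was taken as an OPC when it held at least 1 unique molecular identifier (UMI, 1 counted RNA molecule) of at least 2 of the 7 marker genes Pdgfra, Cspg4, C1ql1, Matn4, Neu4, Emid1 and Lhfpl3. It also had to hold no UMI of the fibroblast genes Dcn and Lum, no more than 1 of the 4 mature oligodendrocyte genes Mog, Mag, Ermn and Opalin, and no more than 1 of the 3 neuron genes Syt1, Stmn2 and Snhg11. This rule gave 277 OPCs among 3889 cells, 59 of 1484 in the Irx3/5dHet library and 218 of 2405 in the WT library. The OPCs were thus chosen by the UMI counts of these genes, which are given as a description only. Mature oligodendrocytes, used for comparison, held at least 2 of the 4 mature oligodendrocyte genes and at most 1 neuron gene. Neurons held at least 2 of the 3 neuron genes and at most 1 mature oligodendrocyte gene. Both classes held at most 1 of the 7 OPC markers and no UMI of Dcn or Lum.

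The Irx3/5dHet mice were heterozygous for Irx3 and Irx5 (genotype Irx3/5+/-), and the WT mice were wild type at both. Irx3 (chr8:91798525-91802067) and Irx5 (chr8:92357625-92376286, GRCm38) are neighbouring homeobox genes. Both groups were CD-1 mice of 7 to 8 weeks whose arcuate nucleus and median eminence, at the floor of the hypothalamus, were microdissected and dissociated, and live cells were sorted before encapsulation. Tissue of 5 Irx3/5dHet mice and of 7 WT mice was pooled, so each genotype was 1 pool and 1 library, and mice cannot be told apart within a pool. No cell type is named for the mutation, so an effect within OPCs and one from other cells cannot be told apart. With 1 library per genotype there was no replicate check and no test of a difference between genotypes. Intervals are 95% intervals (Clopper-Pearson for shares, Poisson for levels, exact conditional binomial for ratios) and cover counting error only.

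OPCs are the dividing glial cells of the adult brain from which myelinating oligodendrocytes are made. They receive platelet-derived growth factor through the receptor PDGFRA, carry the NG2 proteoglycan encoded by Cspg4, and receive synaptic input from neurons. On the way to an oligodendrocyte they pass through a committed precursor state marked by the receptor GPR17, then lose the precursor genes and turn on those of myelin. In the median eminence, OPCs renew oligodendrocytes throughout adult life.

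The promoters of 3 marker genes are shown because these genes define the cells and because Matn4 had a lower level in Irx3/5dHet than in WT OPCs. Each run covers 250 bases before to 50 bases after a transcription start, 5′ to 3′ on the strand of the gene, from RefSeq on GRCm38.p6. Capitals mark matches to CAGATG or CAGCTG, E-box words of the kind bound by basic helix-loop-helix factors such as OLIG2, or to their reverse complements.
Pdgfra, chr5:75152001-75152300, plus strand: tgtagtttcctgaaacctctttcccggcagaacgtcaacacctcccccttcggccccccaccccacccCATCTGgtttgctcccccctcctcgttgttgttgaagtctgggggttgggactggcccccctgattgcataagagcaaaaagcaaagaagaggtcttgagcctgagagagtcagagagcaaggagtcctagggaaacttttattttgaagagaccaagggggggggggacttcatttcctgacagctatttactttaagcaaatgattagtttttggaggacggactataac
Lhfpl3, chr5:22745804-22746103, plus strand: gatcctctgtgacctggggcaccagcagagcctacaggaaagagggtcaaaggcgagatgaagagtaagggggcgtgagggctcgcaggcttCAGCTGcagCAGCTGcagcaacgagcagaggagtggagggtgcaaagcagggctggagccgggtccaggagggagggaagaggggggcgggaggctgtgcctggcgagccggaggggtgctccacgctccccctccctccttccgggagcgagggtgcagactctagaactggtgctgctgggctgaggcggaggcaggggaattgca
Matn4, chr2:164404769-164405068, minus strand: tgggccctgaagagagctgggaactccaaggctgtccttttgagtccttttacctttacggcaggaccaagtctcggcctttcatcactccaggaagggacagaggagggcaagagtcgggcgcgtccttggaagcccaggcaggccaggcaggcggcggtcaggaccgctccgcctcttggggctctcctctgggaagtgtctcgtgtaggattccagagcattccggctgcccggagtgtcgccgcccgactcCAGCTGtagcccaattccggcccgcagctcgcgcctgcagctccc
Pdgfra held 1 CAGATG word, on the strand opposite to the gene, Lhfpl3 held 2 CAGCTG words, and this Matn4 start held 1. Among 32851 mouse promoters of the same length, 17.2% held CAGATG and 16.3% held CAGCTG on either strand. The SOX10-type words ACAAAG and ACAATG, found in 18.7% and 12.6% of all promoters, were in none of these 3 windows. Windows not printed differed from these. Those of Cspg4 and Neu4, another Matn4 start (chr2:164405111-164405410) and an Emid1 start (chr11:5152181-5152480) held none of these words. Another Emid1 start (chr11:5150025-5150324) held 1 CAGCTG and 1 ACAAAG word. A match is a description of the letters and not a site of binding.

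The Irx3/5dHet library held 2974060 UMIs over 1800 barcodes and the WT library 4426817 over 2800, and 1484 and 2405 cells passed the limits of 300 genes and of 20% UMIs from mitochondrial genes. The libraries shared 3 barcodes, none of them an OPC. Doublet calling with Scrublet marked 4 Irx3/5dHet and 13 WT cells, none of them an OPC. The OPCs held 58443 UMIs in Irx3/5dHet and 305229 in WT. Irx3/5dHet OPCs had a median of 760 UMIs (351 to 3690) and 627 genes, and WT OPCs had a median of 1188.5 UMIs (356 to 6866) and 907 genes. The median mitochondrial share was 1.11% in Irx3/5dHet and 1.19% in WT OPCs. The shallower Irx3/5dHet OPCs bear on every share of cells with a UMI below, so the shares that are compared are also given after each cell was thinned to 500 UMIs, which kept 51 Irx3/5dHet and 202 WT OPCs.

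The cells fitted their label by genes that the rule did not use. Olig1, the transcription factor of the oligodendrocyte lineage, was found in 53 of 59 Irx3/5dHet OPCs (89.8%) and in 198 of 218 WT OPCs (90.8%). At 500 UMIs a cell, Olig1 was found in 80.4% of Irx3/5dHet and 74.3% of WT OPCs, against 36.4% and 30% of mature oligodendrocytes of the same libraries. Ptprz1, a receptor phosphatase of glial precursors, was found in 52.9% of Irx3/5dHet and 51.0% of WT OPCs and in 0.935% and 0.435% of mature oligodendrocytes. Mature oligodendrocytes before thinning had median depths of 1168.5 UMIs in Irx3/5dHet and 1309 in WT. Among cells that held exactly 1 marker and passed the other limits, 22 in Irx3/5dHet and 48 in WT, Olig1 was found in 27.3% and 29.2%. Among members with exactly 2 markers, 13 in Irx3/5dHet and 44 in WT, it was found in 92.3% and 86.4%. Those with 1 and those with 2 markers had median depths of 761 and 795 UMIs in Irx3/5dHet and of 743 and 882.5 UMIs in WT.

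Markers of most other cell types were low in the OPCs. Of the 4 endothelial markers, the OPCs held 0 UMIs in Irx3/5dHet and 3 in WT, with Flt1 and Pecam1 at 0 in both. The 4 tanycyte markers summed to 2 UMIs in Irx3/5dHet and 4 in WT OPCs, with Rax at 0 in both, and the 5 microglia markers summed to 2 and 15. The ependymal list held 6 UMIs in Irx3/5dHet and 11 in WT, the mural list 3 and 7, the fibroblast list 1 and 3, and the pars tuberalis list 6 and 62. At least 2 of 4 neuron markers were found in 1 of 59 Irx3/5dHet and 27 of 218 WT OPCs. The level of these 4 was 719 CPM (counts of the gene per 1000000 UMIs of the cell type) in Irx3/5dHet and 685 CPM in WT OPCs, against 7606 and 8838 CPM in neurons. After thinning, 0 of 51 Irx3/5dHet and 5 of 202 WT OPCs held at least 2 neuron markers, with overlapping intervals (0 to 6.98% and 0.808 to 5.68%). At least 2 of the 5 mature oligodendrocyte markers were found in 7 of 59 Irx3/5dHet and 35 of 218 WT OPCs, and at 500 UMIs a cell in 1 of 51 and 12 of 202. These 5 were at 2635 CPM in Irx3/5dHet and 3083 CPM in WT OPCs, below the 132261 and 110964 CPM of mature oligodendrocytes and above the 253 and 327 CPM of neurons, which should lack them. The 5 astrocyte markers were at 548 CPM (32 UMIs) in Irx3/5dHet and 485 CPM (148 UMIs) in WT OPCs, above the 246 and 359 CPM of all other cells, and at least 1 was found in 37.3% and 41.7% of OPCs. Of these UMIs, 27 in Irx3/5dHet and 144 in WT were of the glutamate transporter gene Slc1a2, while Aldh1l1 was at 0 and Aqp4, Agt and Gja1 held 1 or 2 each in both libraries.

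OPCs took a smaller share of the Irx3/5dHet library than of the WT library. They were 59 of 1484 Irx3/5dHet cells (3.98%, 3.04 to 5.10%) and 218 of 2405 WT cells (9.06%, 7.95 to 10.3%), a ratio of 0.439 (0.323 to 0.587). Neurons were 37.5% of Irx3/5dHet and 24.6% of WT cells, and among cells with at most 1 of the 3 neuron genes the OPC share was 6.65% in Irx3/5dHet and 12.5% in WT, a ratio of 0.534 (0.393 to 0.715). Set against their progeny, there were 0.509 OPCs per mature oligodendrocyte in Irx3/5dHet (59 to 116) and 0.883 in WT (218 to 247), a ratio of 0.576 (0.425 to 0.772). A lower share was not particular to OPCs. Tanycytes, cells with at least 2 of the 4 tanycyte markers within the limits on other cell types, were 2.22% of Irx3/5dHet and 4.57% of WT cells (ratio 0.486, 0.319 to 0.723). Mature oligodendrocytes were 7.82% and 10.3% (ratio 0.761, 0.605 to 0.953). Among cells with at most 1 neuron gene these ratios were 0.592 (0.388 to 0.880) and 0.927 (0.737 to 1.16). The part of dissection, dissociation and the sort in these shares was not tested.

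The difference in share was not even across cell depth. Among cells of 500 to under 1000 UMIs, OPCs were 32 of 474 in Irx3/5dHet (6.75%, 4.66 to 9.40%) and 63 of 699 in WT (9.01%, 6.995 to 11.4%), so the intervals overlapped. Among cells of 1000 to under 2000 UMIs, they were 16 of 416 in Irx3/5dHet (3.85%, 2.21 to 6.17%) and 104 of 769 in WT (13.5%, 11.2 to 16.1%). Among cells of 2000 UMIs and over, they were 3 of 430 in Irx3/5dHet (0.698%, 0.144 to 2.03%) and 35 of 696 in WT (5.03%, 3.53 to 6.92%). The lower share thus lay in the deeper cells, and Irx3/5dHet OPCs were shallower than WT OPCs (medians of 760 and 1188.5 UMIs) although all other cells had closer medians of 1196 UMIs in Irx3/5dHet and 1287 in WT. Since a deeper cell reaches 2 markers more easily, fewer OPCs and less RNA per OPC both lower the unthinned share, where they cannot be told apart. When every cell of at least 500 UMIs was thinned to 500 UMIs before the rule, depth no longer bore on reaching 2 markers. OPCs were then 42 of 1320 Irx3/5dHet cells (3.18%) and 138 of 2164 WT cells (6.38%), a ratio of 0.499 (0.344 to 0.709). Cells under 500 UMIs were left out of this ratio, and the part of RNA per OPC in passing the limits on cells was not tested.

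**Figure D1:**
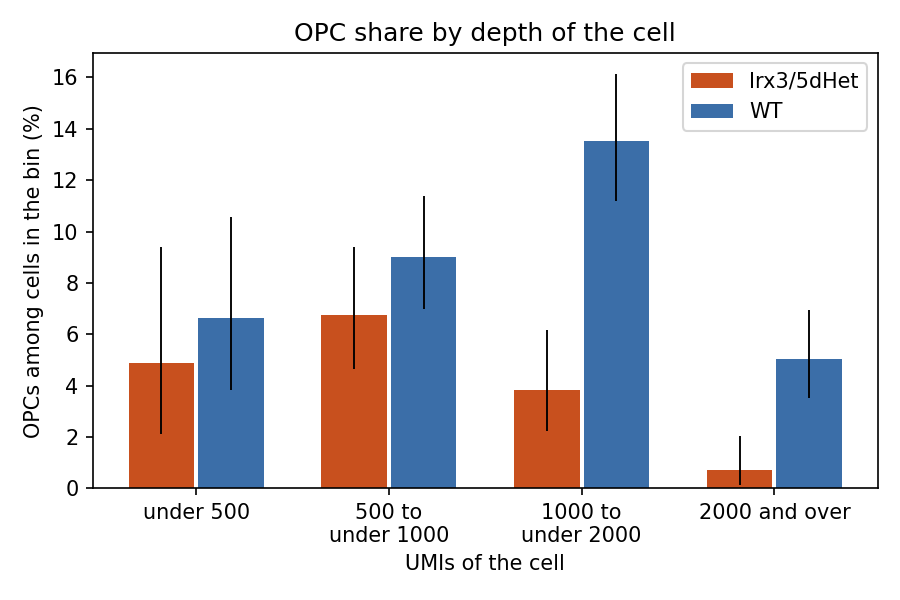
Share of OPCs among all cells of each library (%, y axis) by the UMIs of the cell (x axis); bars are Irx3/5dHet (orange) and WT (blue), and lines are 95% Clopper-Pearson intervals. The intervals overlap under 1000 UMIs and are apart from 1000 UMIs upwards, where Irx3/5dHet stands at 3.85% and 0.698% and WT at 13.5% and 5.03%.

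The 7 markers that chose the cells differed in how the libraries stood. Before thinning, at the unequal depths given above, Irx3/5dHet OPCs held fewer markers each: 13, 27, 15, 3, 1 and 0 of them held 2, 3, 4, 5, 6 and 7 markers, against 44, 59, 63, 36, 15 and 1 of the WT OPCs. Pdgfra, the receptor for platelet-derived growth factor, was at 1010 CPM (59 UMIs) in Irx3/5dHet and 1042 CPM (318 UMIs) in WT. Cspg4 was at 428 and 396 CPM and Neu4, a sialidase, at 616 and 590 CPM in Irx3/5dHet and WT. Emid1, an extracellular matrix protein gene, was at 291 CPM in Irx3/5dHet and 344 CPM in WT, and Lhfpl3, a membrane protein gene, at 1626 and 1501 CPM. These 5 levels lay within counting error of each other between the libraries.

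C1ql1 and Matn4 stood apart from the other 5 markers, in opposite directions. C1ql1 (chr11:102939264-102946688, minus strand, GRCm38), a secreted C1q-like protein gene, was at 1283 CPM (75 UMIs) in Irx3/5dHet and 462 CPM (141 UMIs) in WT, a log2 ratio of Irx3/5dHet over WT, taken after adding 0.5 to each UMI sum, of 1.48 (1.05 to 1.89). No single cell carried this, since the highest held 5 of the 75 UMIs in Irx3/5dHet and 6 of the 141 in WT. At 500 UMIs a cell, C1ql1 was found in 41.2% (27.6 to 55.8%) of Irx3/5dHet and 21.3% (15.9 to 27.6%) of WT OPCs, and in 0 of 107 Irx3/5dHet and 0 of 230 WT mature oligodendrocytes, which allows shares of up to 2.80% and 1.30% taking 3 cells as the limit for a count of 0 (3.39% and 1.59% by Clopper-Pearson). Matn4, which encodes the matrix protein matrilin-4, was at 513 CPM (30 UMIs) in Irx3/5dHet and 803 CPM (245 UMIs) in WT, a log2 ratio of −0.62 (−1.24 to −0.09). Before thinning, Matn4 was found in 32.2% of Irx3/5dHet and 60.6% of WT OPCs. At 500 UMIs a cell the shares were 21.6% (11.3 to 35.3%) and 26.7% (20.8 to 33.4%), with overlapping intervals, so the difference in detection was not visible at equal depth. Both genes chose the cells, which makes these ratios a description only. Mature oligodendrocytes were limited to at most 1 of the 7 markers, so their low shares were in part set in advance.

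**Figure D2:**
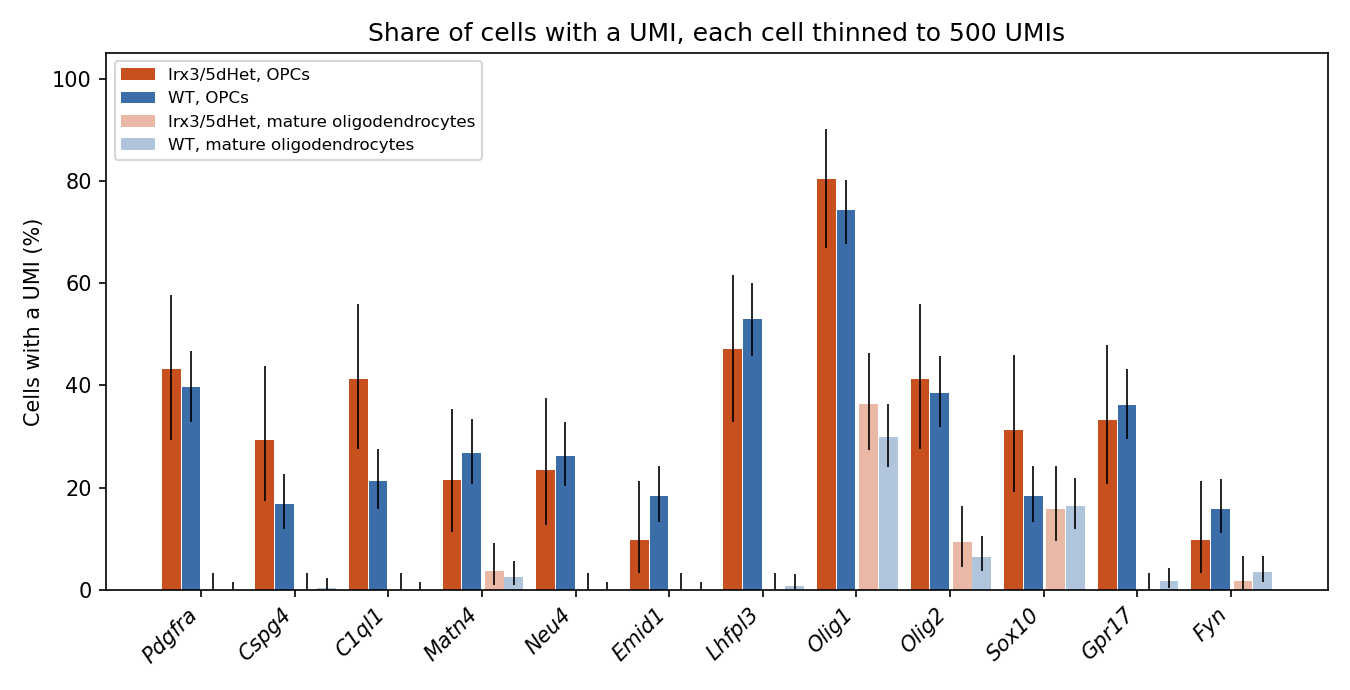
Cells with at least 1 UMI of each gene (%, y axis) after thinning every cell to 500 UMIs, in OPCs (51 Irx3/5dHet and 202 WT cells, dark bars) and mature oligodendrocytes (107 and 230 cells, pale bars); lines are 95% Clopper-Pearson intervals. The first 7 genes chose the OPCs, and mature oligodendrocytes were limited to at most 1 of them. C1ql1 stands at 41.2% in Irx3/5dHet and 21.3% in WT OPCs, and Olig1 at 80.4% and 74.3%.

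Lineage transcription factors were at close levels in both libraries, with a slightly higher summed level in Irx3/5dHet. Of 25 on the list, 22 held at least 10 UMIs over the OPCs, and 0 of them were at least 2-fold higher and 1 at least 2-fold lower in Irx3/5dHet. Over all 7191 genes with at least 10 UMIs, 10.9% were at least 2-fold higher and 13.8% at least 2-fold lower, with a median log2 ratio of 0.03, so the list's count lay below both. Its median log2 ratio was 0.14, and its summed level was 8761 CPM in Irx3/5dHet and 7725 CPM in WT OPCs (1.13-fold, 1.03 to 1.25). Olig1 was at 3337 CPM in Irx3/5dHet and 2778 CPM in WT (log2 ratio 0.27, 0.03 to 0.49). Olig2, which specifies the lineage, was at 1283 CPM in Irx3/5dHet and 947 CPM in WT (log2 ratio 0.45, 0.05 to 0.81). Sox10, which drives myelin genes, was at 445 and 524 CPM in Irx3/5dHet and WT (log2 ratio −0.21, −0.89 to 0.37), and Tcf4, a helix-loop-helix partner factor, at 753 and 662 CPM. The 1 factor past 2-fold was Etv5, a target of growth factor signals, with 1 UMI in Irx3/5dHet and 24 in WT (log2 ratio −1.64, −7.56 to 0.42), named after its values were seen. Its relative Etv4 had 10 UMIs in Irx3/5dHet and 35 in WT, a log2 ratio of 0.63 (−0.60 to 1.62).

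Genes that stood out in OPCs against all other cells of both libraries were ranked by the lower of the 2 libraries' folds, among 1875 genes found in at least 10% of the OPCs of each. Apart from the markers, Chst5, a sulfotransferase gene, led with 95.9-fold in Irx3/5dHet and 92.7-fold in WT, followed by A930009A15Rik with 160- and 79.4-fold. Fam89a was 183-fold higher in Irx3/5dHet and 66.0-fold higher in WT OPCs, and Scrg1, known as a gene that responds to scrapie, 152- and 54.2-fold. Scrg1 was also abundant, with 1164 CPM in Irx3/5dHet and 1098 CPM in WT. The fatty acid binding protein gene Fabp7, known from radial glia, was 76.0- and 41.6-fold higher than in other cells of Irx3/5dHet and WT. The Notch target Hes5, a brake on differentiation, was 50.3- and 39.4-fold higher, and the potassium channel partner Kcnip3 was 45.2- and 33.7-fold higher. The 20 leading genes also held Tmem255b, 3110035E14Rik, Snx22, Gpr17, Sapcd2, Plpp4, Olig2, Etv4, Traf4, Lmcd1, Susd5, Lims2 and AW047730.

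Between the libraries, 2 of these 20 differed by at least 2-fold in OPCs, Fam89a and Lmcd1, both higher in Irx3/5dHet. Over all genes with at least 10 UMIs, 10.9% were at least 2-fold higher and 13.8% at least 2-fold lower. With at least 30 UMIs these shares were 4.43% and 8.87%. Fam89a was at 359 CPM (21 UMIs in 10 cells) in Irx3/5dHet and 125 CPM (38 UMIs in 30 cells) in WT, a log2 ratio of 1.54 (0.69 to 2.33). Lmcd1, a LIM domain co-regulator, was at 308 CPM in Irx3/5dHet and 108 CPM in WT, a log2 ratio of 1.53 (0.59 to 2.38). It was found in 18 of 59 Irx3/5dHet OPCs (30.5%) and 24 of 218 WT OPCs (11%) before thinning. Thinned to 500 UMIs, it was found in 4 of 51 (7.84%) and 10 of 202 (4.95%), and in another draw in 8 of 51 (15.7%) and 14 of 202 (6.93%), with overlapping intervals in both draws. On the wider list of 36 other OPC genes, 35 held at least 10 UMIs, 2 were at least 2-fold higher and 1 at least 2-fold lower (10.9% and 13.8% over all genes), with a median log2 ratio of 0.12. Serpine2, a protease inhibitor and the most abundant of them, was at 2396 CPM in Irx3/5dHet and 2421 CPM in WT, and Ptprz1 was at 1762 and 1625 CPM. Pcdh15, a protocadherin gene, was one of the 2 past 2-fold, with 24 UMIs in Irx3/5dHet and 58 in WT (log2 ratio 1.13).

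Across the whole transcriptome of the OPCs, 2977 genes held at least 30 UMIs, and their median log2 ratio was 0.01. Of these, 132 (4.43%) were at least 2-fold higher and 264 (8.87%) at least 2-fold lower in Irx3/5dHet. Pseudogenes made up 83 of the genes that were lower and 4 of those that were higher, out of 230 pseudogenes tested, with a median log2 ratio of −0.69. They took 5.78% of the OPC UMIs in Irx3/5dHet and 8.75% in WT. Reads of a pseudogene and of its near-identical parent gene can be assigned to either. Without pseudogenes, genes with Gm or Rik names, and mitochondrial, ribosomal protein and haemoglobin genes, 2610 genes remained. Of these, 119 were at least 2-fold higher and 169 at least 2-fold lower. The 2610 still held clone-named gene models such as AL591207.1 and CT868733.2. WT OPCs held most of the UMIs, so a gene could reach 30 UMIs through WT alone more easily than through Irx3/5dHet alone. With no minimum of UMIs, 3291 of 16987 genes were at least 2-fold higher and 2128 at least 2-fold lower.

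**Figure D3:**
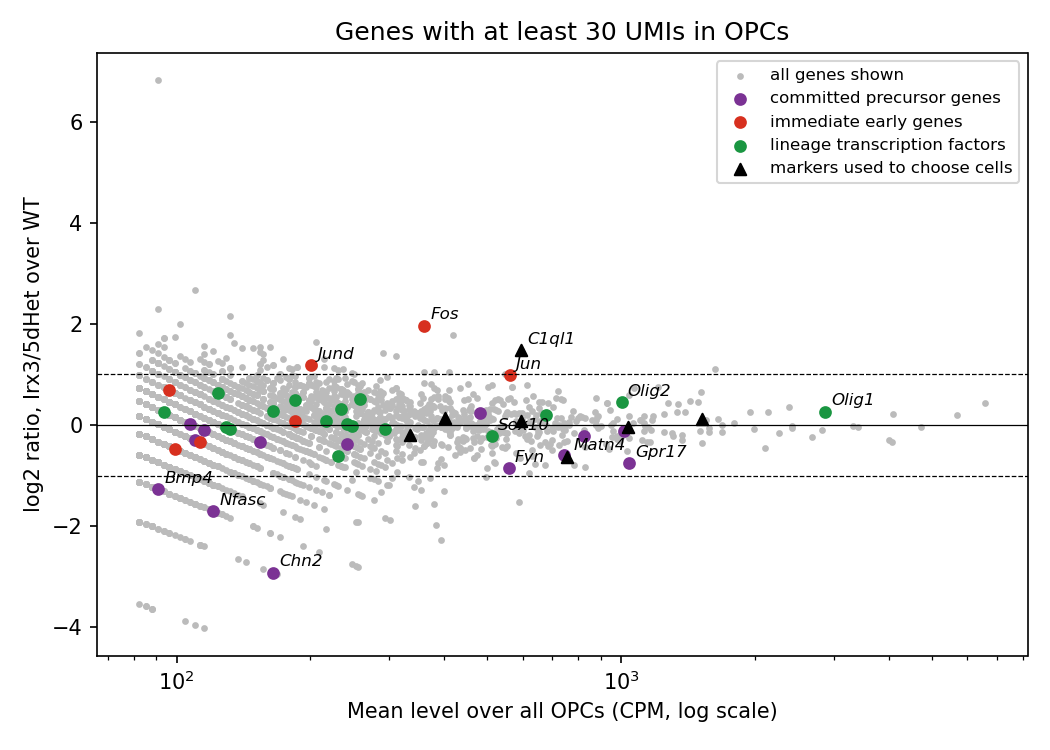
Log2 ratio of Irx3/5dHet over WT (y axis) against the mean level over all OPCs (CPM, log x axis) for the 2977 genes with at least 30 UMIs; coloured points are members of 3 gene lists, triangles the markers that chose the cells, and dashed lines 2-fold. Fos, C1ql1, Jund and Jun lie at 1.97, 1.48, 1.19 and 0.99, and Gpr17 and Fyn at −0.76 and −0.86. Olig1 and Olig2 lie somewhat above 0 at high levels, and the highest point, at 6.82, is AC122428.3.

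Genes of committed precursors were lower in Irx3/5dHet OPCs. Of 23 on the list, 18 held at least 10 UMIs, and 16 of these had a log2 ratio below 0. None was at least 2-fold higher and 4 were at least 2-fold lower, beside backgrounds of 10.9% and 13.8% over all genes. The list's median was −0.47 against 0.03 over all genes, and its summed level was 4569 CPM in Irx3/5dHet and 6326 CPM in WT (0.722-fold, 0.633 to 0.821). Gpr17 was at 650 CPM (38 UMIs) in Irx3/5dHet and 1114 CPM (340 UMIs) in WT, a log2 ratio of −0.76 (−1.30 to −0.29). Fyn, a kinase that acts in process outgrowth and myelination, was at 325 CPM in Irx3/5dHet and 603 CPM in WT (log2 ratio −0.86, −1.66 to −0.21). Chn2, a Rac regulator, had 1 UMI in Irx3/5dHet and 59 UMIs in 15 cells in WT (log2 ratio −2.93, −8.83 to −0.96). Nfasc, an axon adhesion gene, had 2 UMIs in Irx3/5dHet and 42 in WT (log2 ratio −1.70, −5.10 to −0.06). Bmp4, a ligand that newly committed cells express, had 2 UMIs in 1 cell in Irx3/5dHet and 31 UMIs in 12 cells in WT, a log2 ratio of −1.27 (−4.68 to 0.41) that counting error spans and that was 0.93 among OPCs of 500 to under 2000 UMIs (2 and 5 UMIs). Sirt2 and Tnr, which are also found earlier and later in the lineage, had log2 ratios of −0.12 (−0.57 to 0.29) and −0.22 (−0.74 to 0.24). The depth of the cells moved with this result, since among OPCs of 500 to under 2000 UMIs the Gpr17 log2 ratio was −0.26. That of Sirt2 was 0.42 among these cells, with 38 UMIs in Irx3/5dHet and 120 in WT.

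The OPCs were therefore split by whether they held a Gpr17 UMI. Gpr17 was found in 21 of 59 Irx3/5dHet OPCs (35.6%, 23.6 to 49.1%) and in 115 of 218 WT OPCs (52.8%, 45.9 to 59.5%). At 500 UMIs a cell it was found in 17 of 51 Irx3/5dHet OPCs (33.3%, 20.8 to 47.9%) and 73 of 202 WT OPCs (36.1%, 29.5 to 43.2%), so the shares of cells did not differ beyond counting error at equal depth. Mature oligodendrocytes thinned in the same way held Gpr17 in 0 of 107 Irx3/5dHet cells, which allows a share of up to 2.80% by the limit of 3 cells (3.39% by Clopper-Pearson), and in 4 of 230 WT cells (1.74%). Cells with many Gpr17 UMIs were scarcer in Irx3/5dHet, where 2 of 59 OPCs held at least 3, against 32 of 218 in WT, although at 500 UMIs a cell the counts were 1 of 51 (1.96%, 0.0496 to 10.4%) and 11 of 202 (5.45%, 2.75 to 9.53%), with overlapping intervals. The highest cell held 7 UMIs in Irx3/5dHet and 30 in WT.

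Levels in OPCs with and without Gpr17 were set side by side in each library, and whether the libraries differ in this was not tested. The other 22 committed precursor genes together were 2.07-fold higher (1.58 to 2.71) in OPCs with Gpr17 than in those without in Irx3/5dHet, and 2.27-fold higher (2.01 to 2.55) in WT. Cnp, an early myelin enzyme gene, was at 867 and 186 CPM with and without Gpr17 in Irx3/5dHet and at 967 and 227 CPM in WT, and Fyn at 771 and 79.6 CPM and at 885 and 187 CPM. In WT, 30 of the 31 Bmp4 UMIs lay in cells with Gpr17, and in Irx3/5dHet 0 of 2. Pdgfra did not differ beyond counting error, at 819 and 1114 CPM with and without Gpr17 in Irx3/5dHet (ratio 0.735, 0.392 to 1.32) and at 951 and 1177 CPM in WT (ratio 0.808, 0.644 to 1.01). After thinning, Pdgfra was found in 35.3% and 47.1% of cells with and without Gpr17 in Irx3/5dHet and in 42.5% and 38.0% in WT. Matn4 had ratios of 1.59 (0.718 to 3.48) in Irx3/5dHet and 0.888 (0.685 to 1.15) in WT. The lineage transcription factors were level across the split, with ratios of 0.993 in Irx3/5dHet and 0.979 in WT. Cells with Gpr17 were also the deeper ones, with medians of 837 and 733.5 UMIs with and without it in Irx3/5dHet and 1292 and 1085 UMIs in WT.

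Within each side of the split, the libraries were close for committed precursor genes. The 22 genes other than Gpr17 were at 5879 CPM in Irx3/5dHet and 6731 CPM in WT among cells with Gpr17, a ratio of 0.873 (0.719 to 1.05). Among cells without it they were at 2839 and 2970 CPM, a ratio of 0.956 (0.763 to 1.19). C1ql1 in contrast was higher in Irx3/5dHet on both sides, 2.28-fold (1.32 to 3.76) with Gpr17 and 2.81-fold (1.92 to 4.09) without it. Matn4 had a ratio of 0.883 (0.471 to 1.53) with Gpr17 and 0.494 (0.272 to 0.839) without it.

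**Figure D4:**
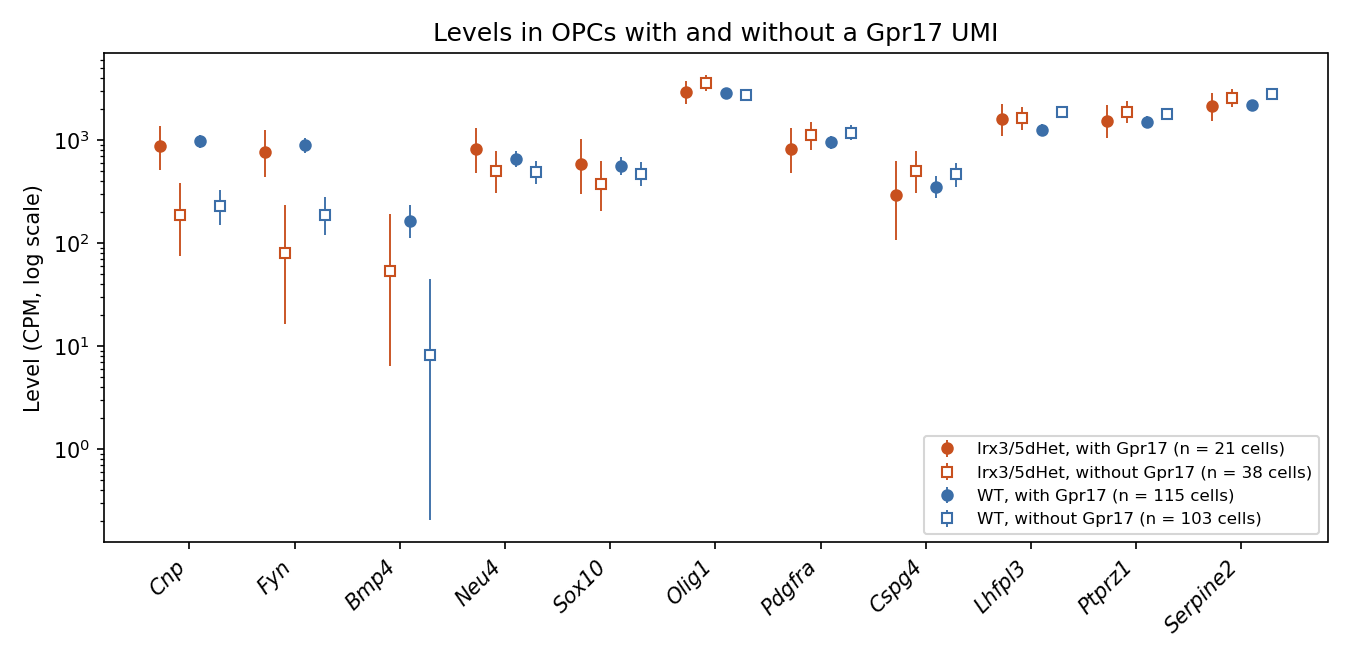
Levels (CPM, log y axis) of 11 genes in OPCs with a Gpr17 UMI (filled circles) and without one (open squares) in Irx3/5dHet (orange) and WT (blue); lines are 95% Poisson intervals, and Bmp4, with 0 UMIs in Irx3/5dHet cells with Gpr17, has no point there. Cnp and Fyn are higher with Gpr17 in both libraries, with Fyn at 771 and 79.6 CPM in Irx3/5dHet and 885 and 187 CPM in WT, and the Pdgfra intervals overlap.

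Myelin genes were present at precursor levels in both libraries. Of 23 on the list, 18 held at least 10 UMIs, 1 was at least 2-fold higher and 3 at least 2-fold lower (10.9% and 13.8% over all genes), with a median log2 ratio of −0.17. With Mag and Car2, at 0 UMIs in Irx3/5dHet, set to the 3 UMIs that a count of 0 allows, 1 was at least 2-fold lower and the median was 0.02. Their summed level was 5852 CPM in Irx3/5dHet and 6510 CPM in WT OPCs (0.899-fold, 0.799 to 1.01), against 192134 and 165208 CPM in mature oligodendrocytes. Cnp was at 428 CPM in Irx3/5dHet and 668 CPM in WT (log2 ratio −0.62, −1.31 to −0.04). Gjc3, the connexin of glial junctions, was at 804 CPM in Irx3/5dHet and 573 CPM in WT (log2 ratio 0.50, −0.01 to 0.96). Mbp, the myelin basic protein gene, had 11 UMIs in Irx3/5dHet and 64 in WT, 188 and 210 CPM, and with no mature oligodendrocyte or neuron gene allowed 11 and 24 UMIs, a log2 ratio of 0.93.

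OPCs with several cell cycle genes were found in both libraries at shares that counting error does not separate. At least 3 of 25 cell cycle genes were found in 5 of 59 Irx3/5dHet OPCs (8.47%, 2.81 to 18.7%) and 14 of 218 WT OPCs (6.42%, 3.56 to 10.5%). At 500 UMIs a cell the counts were 4 of 51 (7.84%) in Irx3/5dHet and 11 of 202 (5.45%) in WT. Before thinning, 1 Irx3/5dHet and 5 WT OPCs lay at exactly 2 genes and 0 and 1 at exactly 3. After thinning, 0 and 2 lay at exactly 2 genes and 1 and 6 at exactly 3, so the WT count at equal depth rested largely on cells at the limit. The cell cycle list summed to 1403 CPM in Irx3/5dHet and 1274 CPM in WT OPCs (1.10-fold, 0.857 to 1.40), against 127 and 137 CPM in mature oligodendrocytes. Its median log2 ratio over 16 genes was 0.22, and 1.53 with no mature oligodendrocyte or neuron gene allowed in an OPC. These cells were deeper, with medians of 1728 UMIs in Irx3/5dHet and 1923 in WT, against 748.5 and 1148 in the others. In WT the cell cycle list was lower in cells with Gpr17 (ratio 0.620, 0.506 to 0.761), and in Irx3/5dHet the ratio was 1.16 (0.722 to 1.85). Ccnd1, the cyclin of the first growth phase, was at 753 CPM in Irx3/5dHet and 642 CPM in WT (log2 ratio 0.24, −0.28 to 0.71). Top2a, a topoisomerase of dividing cells, had 11 UMIs in 4 cells in Irx3/5dHet and 32 UMIs in 11 cells in WT (log2 ratio 0.89, −0.29 to 1.87). With no mature oligodendrocyte or neuron gene allowed these were 11 UMIs in Irx3/5dHet and 7 in WT, a log2 ratio of 2.63.

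Immediate early genes, which are turned on within minutes of a stimulus and also by tissue dissociation, were higher in Irx3/5dHet OPCs. Of 25 on the list, 13 held at least 10 UMIs, 5 of these were at least 2-fold higher and none was at least 2-fold lower (10.9% and 13.8% over all genes), and 11 had a log2 ratio above 0. The median was 0.69 and the summed level 3473 CPM in Irx3/5dHet and 1730 CPM in WT (2.01-fold, 1.70 to 2.37). Fos was at 958 CPM (56 UMIs in 9 cells) in Irx3/5dHet and 246 CPM (75 UMIs in 43 cells) in WT, a log2 ratio of 1.97 (1.44 to 2.48). A single Irx3/5dHet cell held 25 of these 56 UMIs, and without the cell richest in Fos in each library the log2 ratio was 1.22. It was 0.98 among OPCs of 500 to under 2000 UMIs and 0.85 as a mean over cells of each cell's CPM. Jun was at 958 CPM (56 UMIs in 23 cells) in Irx3/5dHet and 485 CPM (148 UMIs in 71 cells) in WT, a log2 ratio of 0.99 (0.51 to 1.44), and Jund had a log2 ratio of 1.19 (0.38 to 1.92). Egr1, another early growth response factor, did not stand apart, at 188 and 184 CPM in Irx3/5dHet and WT.

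Mature oligodendrocytes stood the other way for these genes, a difference between cell types that was not tested. In mature oligodendrocytes Fos was at 1598 CPM in Irx3/5dHet and 2587 CPM in WT (log2 ratio −0.69, −0.89 to −0.50), and Jun had a log2 ratio of −1.19 (−1.50 to −0.91). At 500 UMIs a cell, Fos was found in 11.8% (4.44 to 23.9%) of Irx3/5dHet and 8.42% (4.98 to 13.1%) of WT OPCs, and Jun in 27.5% (15.9 to 41.7%) and 19.3% (14.1 to 25.4%). In another draw, Fos was found in 13.7% (5.70 to 26.3%) of Irx3/5dHet and 11.4% (7.36 to 16.6%) of WT OPCs. Jun was found there in 27.5% (15.9 to 41.7%) and 10.9% (6.95 to 16.0%), so its WT share depended on the draw. Within OPCs, the early gene list was lower where Gpr17 was found, with ratios of 0.446 (0.307 to 0.633) in Irx3/5dHet and 0.725 (0.609 to 0.863) in WT. Heat shock genes, another mark of handling, had a median log2 ratio of 0.17 over 13 genes. Of these, 1 was at least 2-fold higher and none at least 2-fold lower, beside 10.9% and 13.8% over all genes. The most abundant of them, Hsp90ab1, was at 2652 CPM in Irx3/5dHet and 2857 CPM in WT. The part of dissociation in these values was not tested.

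Genes through which OPCs sense neurons and matrix had counts of members past 2-fold near or below the 10.9% higher and 13.8% lower over all genes. Of 32 glutamate and GABA receptor genes, 17 held at least 10 UMIs, 1 was at least 2-fold higher and 1 at least 2-fold lower, with a median log2 ratio of 0.06 (−0.24 with no mature oligodendrocyte or neuron gene allowed in an OPC). Cacng4, a partner of AMPA receptors, was at 1044 CPM in Irx3/5dHet and 1143 CPM in WT, and Gria2, the receptor subunit that limits calcium entry, at 856 and 1003 CPM. Of 26 ion channel genes, 18 were measured, 2 were at least 2-fold higher and 3 at least 2-fold lower, with a median of −0.05. Kcnip3 was at 702 CPM in Irx3/5dHet and 403 CPM in WT (log2 ratio 0.81, 0.25 to 1.32), and Kcnd2, which encodes a potassium channel of the kind that such partners bind, had a log2 ratio of 1.22. Of 23 proteoglycan and matrix genes, 19 were measured, 1 was past 2-fold in each direction, and the median was −0.15. Cspg5, a chondroitin sulfate proteoglycan gene, was at 1865 CPM in Irx3/5dHet and 1340 CPM in WT (log2 ratio 0.48, 0.16 to 0.79), whereas Bcan, another, was at 907 and 1016 CPM. Among 21 measured adhesion genes, 1 was at least 2-fold higher and 3 at least 2-fold lower, with a median of −0.21. Tmeff2, one of the 3, had 0 UMIs in Irx3/5dHet and 25 in WT, and with both adhesion genes at 0 set to 3 UMIs the count lower was 1 and the median −0.10.

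Signalling lists were carried by few UMIs. Of 29 growth factor receptor and feedback genes, 17 held at least 10 UMIs, 2 were at least 2-fold higher and 2 at least 2-fold lower (10.9% and 13.8% over all genes), and the median log2 ratio was 0.67. Their summed level was 2122 CPM in Irx3/5dHet and 1684 CPM in WT (1.26-fold, 1.03 to 1.54). Itgb1, a matrix receptor subunit, was at 462 CPM in Irx3/5dHet and 282 CPM in WT (log2 ratio 0.73, 0.03 to 1.35), and Ntrk2, the receptor for brain-derived neurotrophic factor, at 462 and 360 CPM (0.38, −0.31 to 0.98). None of the 10 measured Notch pathway genes was past 2-fold, with a median of −0.08. Hes5 was at 188 and 203 CPM and Hes1 at 257 and 262 CPM in Irx3/5dHet and WT, while Dner, an atypical Notch ligand, was at 582 and 334 CPM (log2 ratio 0.81, 0.19 to 1.37). Of 14 measured Wnt, BMP and Id genes, 2 were at least 2-fold higher and 3 at least 2-fold lower, with a median of −0.11. Id2, an inhibitor of helix-loop-helix factors, was at 274 and 269 CPM in Irx3/5dHet and WT.

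**Figure D5:**
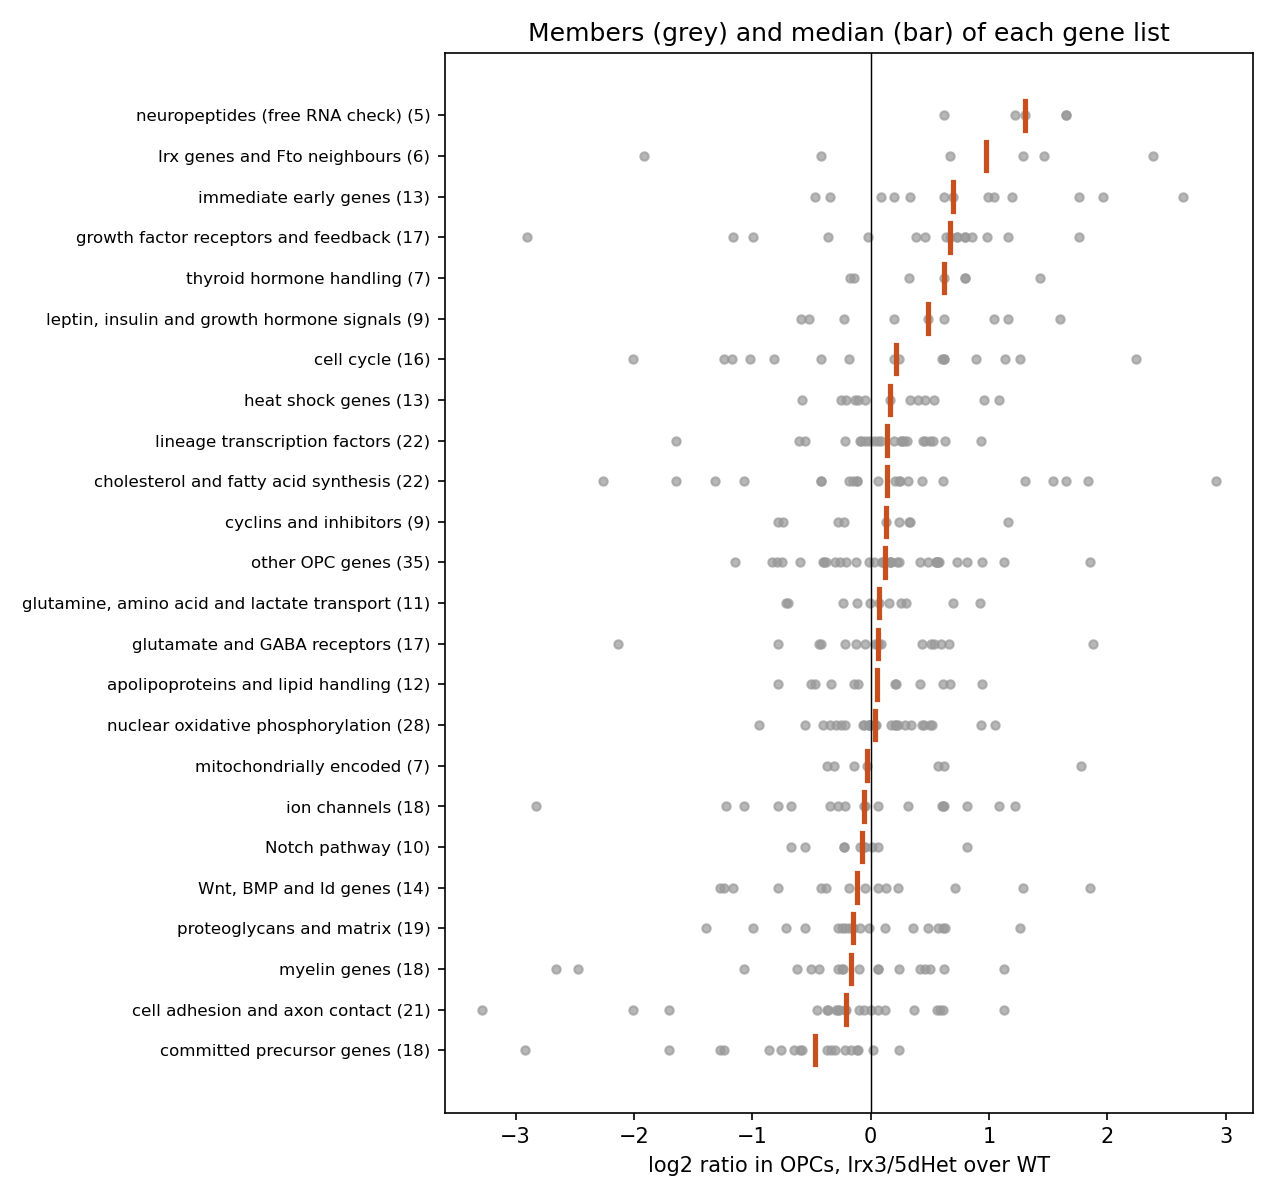
Log2 ratio of Irx3/5dHet over WT in OPCs (x axis) for the members with at least 10 UMIs (grey points, their number in brackets) and the median (orange bar) of each gene list with at least 5 such members. Committed precursor genes have the lowest median, −0.47, immediate early genes stand at 0.69, and the lists near the top with 5 or 6 members rest on few UMIs.

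Metabolic genes showed no common direction. Of 28 nuclear genes of oxidative phosphorylation, all 28 held at least 10 UMIs, 1 was at least 2-fold higher and none at least 2-fold lower (10.9% and 13.8% over all genes), with a median log2 ratio of 0.04. Of 29 cholesterol and fatty acid genes, 22 were measured, 5 were at least 2-fold higher and 4 at least 2-fold lower, with a median of 0.13 (0.22 with Srebf1, at 0 UMIs in Irx3/5dHet, set to 3) and summed levels of 2549 CPM in Irx3/5dHet and 2483 CPM in WT. Cyp51, an enzyme of cholesterol synthesis, was at 205 CPM (12 UMIs) in Irx3/5dHet and 72.1 CPM (22 UMIs) in WT, a log2 ratio of 1.54 (0.36 to 2.59). Scd2, a desaturase, was at 890 and 973 CPM. Dbi, the acyl-CoA binding protein gene and the most abundant on the lipid list, was at 4603 CPM in Irx3/5dHet and 3984 CPM in WT (log2 ratio 0.21, 0.01 to 0.40). Apoe, the lipid carrier, was at 3319 and 4197 CPM (−0.34, −0.56 to −0.12). The 19 antigen presentation and interferon genes summed to 856 CPM in Irx3/5dHet and 1278 CPM in WT (0.670-fold, 0.488 to 0.900), with B2m, the light chain of class I molecules, at 257 and 419 CPM (log2 ratio −0.67, −1.59 to 0.07).

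Hormone signals of the arcuate nucleus were sparse in OPCs. Of 21 leptin, insulin and growth hormone signalling genes, 9 held at least 10 UMIs, 3 were at least 2-fold higher and none at least 2-fold lower (10.9% and 13.8% over all genes). Pik3r1, a subunit of the kinase downstream of insulin, had 10 UMIs in Irx3/5dHet and 78 in WT (log2 ratio −0.52, −1.69 to 0.38). Of 15 thyroid hormone genes, 7 were measured, with a median log2 ratio of 0.62. Neuropeptide genes, whose UMIs in OPCs serve as a check on free RNA, summed to 565 CPM in Irx3/5dHet and 285 CPM in WT OPCs, to 442 and 336 CPM in mature oligodendrocytes and to 12287 and 8357 CPM in neurons. Neuropeptide RNA was thus found in the OPCs of both libraries far below the neuronal level, and close to the level in mature oligodendrocytes in WT.

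The Irx genes themselves were near the limit of detection. Irx3 had 4 UMIs in 4 cells in Irx3/5dHet and 8 UMIs in 7 cells in WT, 68.4 and 26.2 CPM, a log2 ratio of 1.47 (−0.80 to 3.29). Irx5 had 0 UMIs in Irx3/5dHet, where 3 UMIs are the limit that a count of 0 allows, and 5 UMIs in 4 cells in WT. Neither count could show the loss of 1 copy. Irx2 and Irx1, of the related cluster on chromosome 13, were mostly found in OPCs. Irx2 had 8 UMIs in 6 Irx3/5dHet OPCs and 8 UMIs in 7 WT OPCs, against 1 and 3 UMIs in all other cells of the libraries. Irx1 had 3 UMIs in 2 Irx3/5dHet OPCs and 11 UMIs in 10 WT OPCs, against 0 and 1 UMI in all other cells. Irx2 was at 137 CPM in Irx3/5dHet and 26.2 CPM in WT OPCs, a log2 ratio of 2.38 (0.77 to 4.0), and at 500 UMIs a cell it was found in 1 of 51 and 4 of 202 OPCs. Fto, the neighbour of Irx3, had 3 UMIs in Irx3/5dHet and 7 in WT.

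Single genes with the largest ratios were taken from those with at least 30 UMIs whose counting interval left out 1 and where no cell held over 30% of the UMIs of the higher library; 123 were higher and 68 lower in Irx3/5dHet. The highest was Srpr, the receptor for the signal recognition particle, at 274 CPM (16 UMIs in 11 cells) in Irx3/5dHet and 68.8 CPM (21 UMIs in 17 cells) in WT, a log2 ratio of 2.0 (0.96 to 3.0). Gnai1, an inhibitory G protein subunit, followed at 240 CPM in Irx3/5dHet and 72.1 CPM in WT (1.75, 0.65 to 2.76). Cpne3, a calcium-dependent membrane binding protein gene, was at 342 and 118 CPM (1.55, 0.67 to 2.36). The other genes among the 12 highest were Tprgl, Lnx1, Commd2, Cspp1, Lonp2, Tmpo, Tmeff1, Fam89a and Cyp51, with log2 ratios of 1.54 to 1.82. Each rested on 11 to 21 UMIs in Irx3/5dHet and 18 to 38 in WT.

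Of the 12 lowest genes, 7 had no UMI in Irx3/5dHet OPCs. All 12 reached the limit of 30 UMIs through WT alone, which favours genes low in Irx3/5dHet, so their ratios are a description only. Robo1, a receptor for the guidance cue Slit, had 32 UMIs in 27 WT OPCs and was at least 2.04-fold lower in Irx3/5dHet, taking 3 UMIs over the group as the limit for a count of 0. Pygo1, a Wnt co-factor, had 38 UMIs in 30 WT OPCs and was at least 2.43-fold lower. Ptprg, a receptor phosphatase related to Ptprz1, had 32 UMIs in 22 WT OPCs, and AL591207.1, Asna1, Mgat2 and Tiprl had 30 to 40. The other 5 had 1 UMI in Irx3/5dHet: Chn2, Rit2, Por, the cytochrome reductase, CT868733.2 and Mtch1, with 37 to 59 UMIs in WT and log2 ratios of −2.93 to −2.26, whose counting intervals reached up to −0.96 for Chn2 and −0.26 for CT868733.2 and Mtch1. Robo1 was 13.7-fold higher in WT OPCs than in all other WT cells. AC122428.3, which had the highest ratio of all, held 31 of its 32 Irx3/5dHet UMIs in 1 cell and 1 UMI in WT.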

How the data were processed

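The deposited tables held UMI counts per gene and cell, 1 table per library, made by the authors with Drop-seq, which captures 3′ transcript ends. Per the submitters' processing notes, the build was mm10 and the tools included STAR 2.6.0b, Picard, bcl2fastq and Seurat 3. The annotation and the use of strand are not given in the sources used, so a gene and an antisense partner cannot be told apart. A merged table deposited by the authors held natural log values of counts per 10000 UMIs, and only its barcodes were used, for 1 alternative. Cells with under 300 genes or over 20% UMIs from mitochondrial genes were left out. UMIs were summed over the OPCs of each library and divided by their total (CPM), and log2 ratios were taken after adding 0.5 to each sum. With 1 library per genotype no test was made and no p-value is given. Single-gene calls were 2-fold on genes with at least 30 UMIs, and list members needed at least 10. No cell was removed as a doublet beyond the limits on other cell types' genes. Gene coordinates came from GENCODE on GRCm38 and promoters from RefSeq. The members and lists were chosen with earlier results of these data known. Genes named were the 7 markers, the 4 members of each list with the most UMIs, Irx3 and Irx5, the 12 highest and 12 lowest ratios past the limits given and the 20 leading OPC genes; any other gene was named after its values were seen. Python 3.11.15, scipy 1.17.1, pandas 2.3.3, scanpy 1.11.5 and matplotlib 3.10.9 were used. The ratio calculation was tested on simulated data. Results for a few single genes are not reported here.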

Additional observations from a re-analysis of the deposited data

Results flagged for a closer look

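For 9 of the 180 named genes the log2 ratio of Irx3/5dHet over WT in OPCs had the opposite sign to that in all other cells of the 2 libraries, with both counting intervals leaving out 0. The differences between OPCs and other cells were not tested. Cspp1, Tiprl, Rit2 and Mtch1 were named for their OPC ratios, so for them the OPC part of this rule was met in advance. The share of all genes that meet the rule was not counted, so 9 of 180 cannot be called many or few. In 6 of them OPCs were higher in Irx3/5dHet and other cells lower. These were Fos with 1.97 in OPCs and −0.83 in other cells, Cspp1 with 1.62 and −0.21, Jun with 0.99 and −0.51, Fabp7 with 0.42 and −0.45, Olig1 with 0.27 and −0.42, and Dbi with 0.21 and −0.61. In 3 of them OPCs were lower and other cells higher. These were Tiprl with −3.55 in OPCs and 0.26 in other cells, Rit2 with −2.37 and 0.35, and Mtch1 with −2.26 and 1.16. Tiprl had 0 UMIs in Irx3/5dHet OPCs, so its ratio there depends on the 0.5 added and is no bound. The other cells differed in makeup between the libraries, with neurons at 37.5% of Irx3/5dHet and 24.6% of WT cells.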

How the results depend on the processing

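No paired analysis was possible because each genotype was 1 library, and no replicate could be left out. The ratio of OPC shares stayed below 1 under every alternative tried, from 0.237 among cells with at least 1000 UMIs (2.25% in Irx3/5dHet and 9.49% in WT) to 0.534 among cells with at most 1 neuron gene. The count of genes at least 2-fold lower, 264, was 158 with no mature oligodendrocyte or neuron gene allowed in an OPC. With the 9 genes at 0 UMIs in Irx3/5dHet set to 3 UMIs it was 261. With OPCs of 500 to under 2000 UMIs, an alternative chosen after seeing the data, 86 genes were higher and 133 lower. With at least 60 UMIs a gene they were 29 and 73, and with no minimum 3291 and 2128. Of 2160 alternative values of 180 gene ratios, 17 moved beyond the counting interval and none reversed, and of 306 for 24 list medians 6 moved. Without the cell richest in each gene, chosen after seeing the data, the committed precursor median was −0.9955 and that of lineage transcription factors −0.12. Depth limits the Irx genes and all calls resting on under 30 UMIs in Irx3/5dHet.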
